A study of Mus musculus with 6 samples.

Results

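Mast cell genes were followed in RNA-Seq libraries of mammary tumors and normal, adjacent mammary glands from BK5.ATF3 mice. The members are 9 genes chosen by symbol: the granule proteases Cpa3, Cma1, Mcpt4, Tpsb2 and Tpsab1, the receptors Kit, Fcer1a and Ms4a2, and Hdc, the enzyme of histamine synthesis. Of these, 8 were analysed among the 15280 genes of the table, and Tpsab1 was not analysed here. The 6 libraries come from 3 parous transgenic females, each giving 1 gland (M11035, M11640 and M9232) and 1 tumor (T11035, T11640 and T9232), so n = 3 per tissue. In these mice the bovine keratin-5 promoter drives ATF3 in basal epithelial cells. The females were bred and raised 1 litter, and their age at tumor onset is given as 6 to 12 months. Tissue was taken once the tumor was 1.5 cm long. The exact age of each mouse is not given in the sources used here. Gland and tumor both carry the transgene and no other treatment is named, so the comparison is of tumor with gland and not of transgenic with wild-type mice.

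Mast cells are tissue-resident immune cells that mature under the receptor tyrosine kinase Kit and its ligand, stem cell factor. Their granules store histamine and positively charged proteases on a matrix of serglycin and heparin, and release them when IgE bound to the high-affinity receptor FcεRI is cross-linked. In mouse connective tissue the granules hold carboxypeptidase A3, the chymases encoded by Cma1 and Mcpt4 and the tryptases encoded by Tpsb2 and Tpsab1, while Mcpt1 and Mcpt2 encode chymases known from mucosal mast cells. Kit is also made by luminal progenitor cells and melanocytes, and Hdc also by neutrophils and basophils, so neither gene marks mast cells alone.

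Depth was 4750989 to 7806908 fragments on genes per library, at which 3 fragments equal 0.393 to 0.610 CPM (fragments on the gene per 1000000 fragments of effective library size). The libraries differed widely in cell type markers. All 10 squamous epithelial genes were called higher in tumors, while all 10 adipocyte, all 10 B cell and all 9 T cell genes analysed were called lower. Over all genes, 14.5% were called higher and 13.7% lower. Of 10 pan leukocyte genes, 4 were called lower and 0 higher, and their summed CPM ranged from 1745 to 3189 in glands and from 986 to 1407 in tumors. In bulk tissue, fewer mast cells and less RNA per mast cell cannot be told apart.

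The stretches of promoter below are shown because the chymase genes Mcpt4 and Mcpt1, which moved in opposite directions, have similar sequence before their start sites. Each is the last 150 bases before the RefSeq start, on the strand of the gene (RefSeq, GRCm38.p6), and capitals mark a GATA motif. The windows are chr3:20242182-20242331 on the minus strand for Cpa3, chr14:55944676-55944825 on the minus strand for Cma1, chr14:56062311-56062460 on the minus strand for Mcpt4, chr14:56017814-56017963 on the plus strand for Mcpt1 and chr19:11623720-11623869 on the minus strand for Ms4a2.
Cpa3: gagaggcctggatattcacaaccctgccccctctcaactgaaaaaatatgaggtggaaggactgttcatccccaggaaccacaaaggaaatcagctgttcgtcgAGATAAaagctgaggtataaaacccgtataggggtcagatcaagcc
Cma1: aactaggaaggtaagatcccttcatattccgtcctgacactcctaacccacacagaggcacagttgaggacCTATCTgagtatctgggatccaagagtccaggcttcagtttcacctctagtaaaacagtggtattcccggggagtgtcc
Mcpt4: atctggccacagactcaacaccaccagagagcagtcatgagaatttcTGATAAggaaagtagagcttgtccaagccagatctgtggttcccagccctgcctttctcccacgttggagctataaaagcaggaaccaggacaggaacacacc
Mcpt1: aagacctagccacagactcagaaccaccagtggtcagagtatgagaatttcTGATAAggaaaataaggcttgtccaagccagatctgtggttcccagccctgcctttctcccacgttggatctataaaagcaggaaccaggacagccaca
Ms4a2: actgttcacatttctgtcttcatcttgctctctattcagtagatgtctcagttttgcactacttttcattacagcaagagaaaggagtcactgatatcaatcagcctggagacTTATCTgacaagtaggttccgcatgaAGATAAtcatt

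The motif searched was GATAA or GATAG after an A or a T, on either strand of the 250 bases before the start. It was found in the windows of 6 of the 7 members with a promoter entry, namely Cpa3, Cma1, Mcpt4, Fcer1a, Ms4a2 and Hdc, and in that of Mcpt1. Among all 32851 promoter windows, 26.5% held it. The first base of the match lay 46 bases before the start in Cpa3, 79 in Cma1, 103 in Mcpt4 and 99 in Mcpt1, and 3 matches were found in Ms4a2. These letters are not in the windows of Kit or Gata2, and Tpsb2 had no entry. In an alignment of the printed stretches, Mcpt4 and Mcpt1 shared 131 of 154 columns (85.1%), while the other pairs among Cpa3, Cma1, Mcpt4 and Mcpt1 shared 45.1% to 50%. A match is a description of the sequence and not a binding site.

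Relative to library size, the mRNAs of the 4 member proteases analysed were lower in tumors. The receptor mRNAs of Kit and Ms4a2 were lower too, and Hdc mRNA was higher. A gene was called at an adjusted p of at most 0.05 (limma on log2(CPM + 0.5), Benjamini-Hochberg over 15280 genes) and a fold of at least 2. Of the 8 members, 6 were called lower, against 13.7% of all genes. Hdc alone was called higher, against 14.5% of all genes, and Fcer1a was not called. All 3 tumors lay below all 3 glands for 6 members, against 26.3% of all genes, and above them for 1 member, against 27.6%. The median log2 fold change was -1.86 over the 8 members and -0.0028 over all genes.

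**Figure D1:**
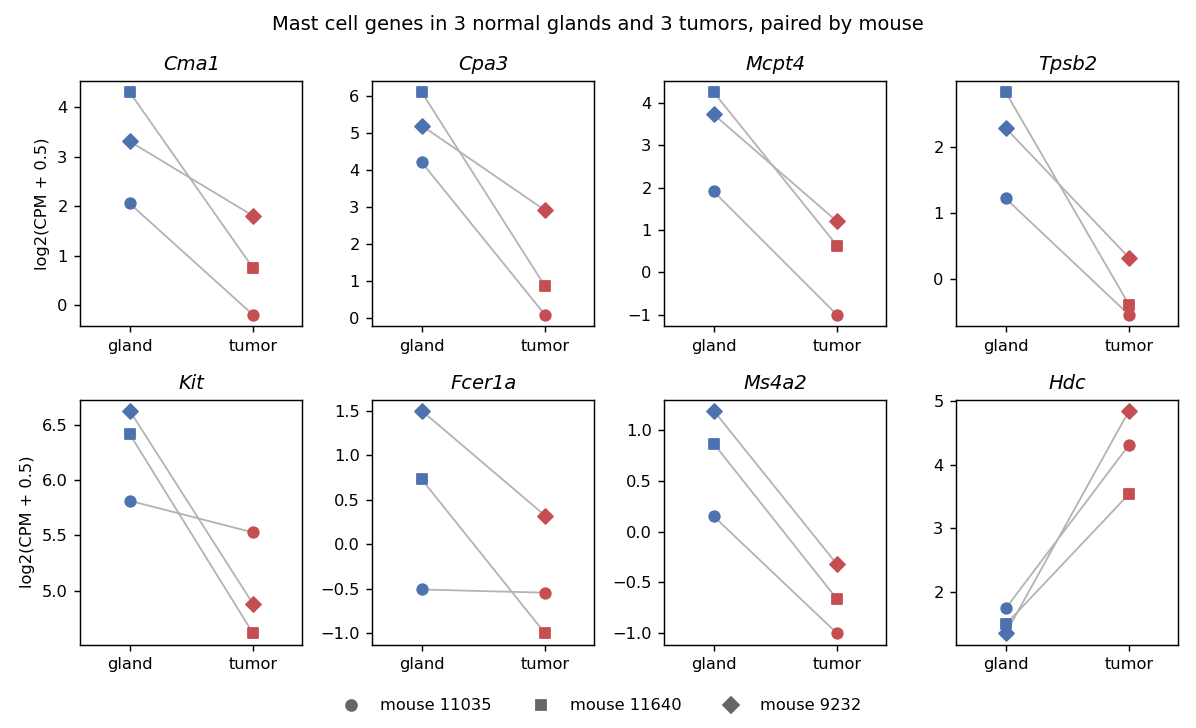
Expression of the 8 mast cell genes, as log2(CPM + 0.5), in 3 normal glands (blue) and 3 tumors (red), with lines joining the libraries of 1 mouse and a separate scale for each gene. The lines fall in all 3 mice for every gene but Hdc, for which they rise in all 3. A library with 0 fragments is drawn at -1.

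Cpa3, the carboxypeptidase A3 of mast cell granules (chr3:20115516-20142080, mm9, minus strand), was the most abundant of the proteases per kilobase of exon. Its level was 18.1, 68.9 and 36.5 CPM in M11035, M11640 and M9232 and 0.558, 1.31 and 7.04 CPM in the tumors of the same mice. Every tumor was below every gland, and tumor T9232 was well above the other tumors. The mean was 41.2 ± 25.7 CPM (SD, n = 3) in glands and 2.97 ± 3.55 CPM in tumors, a 13.9-fold lower level. The log2 fold change was -3.90 (SE 0.71, limma adjusted p = 0.00283). Leaving out T9232 gave -4.71 and leaving out T11035 gave -3.30, both still called.

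Mcpt4 encodes the chymase of connective tissue mast cells (chr14:56678581-56681147, mm9, minus strand). Its level was 3.25, 18.5 and 12.7 CPM in glands M11035, M11640 and M9232 and 0, 1.048 and 1.798 CPM in the tumors, where it rests on 0, 8 and 12 fragments. The tissues did not overlap, and T11035 had no fragment, which allows a level of up to 0.558 CPM. Glands averaged 11.5 ± 7.70 CPM (SD, n = 3) and tumors 0.949 ± 0.903 CPM, and the log2 fold change was -3.02 (SE 0.71, limma adjusted p = 0.00926). It was -2.38 without T11035 and -3.71 without M11035, and called in both cases.

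Cma1 encodes a second chymase on the same chromosome (chr14:56560290-56563498, mm9, minus strand). It stood at 3.66, 19.3 and 9.44 CPM in the glands and at 0.372, 1.18 and 3.00 CPM in the tumors, in the same order of mice. The highest tumor, T9232, was below the lowest gland, M11035, by a small margin. Means were 10.8 ± 7.92 CPM (SD, n = 3) in glands and 1.52 ± 1.34 CPM in tumors, with a log2 fold change of -2.44 (SE 0.64, limma adjusted p = 0.0155). This call did not hold without M11640 (log2 fold change -1.90, limma adjusted p = 0.0517), without T11035 (-1.95, adjusted p = 0.0572) or without T11640 (-2.42, adjusted p = 0.0547), and the value was -3.03 without M11035.

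Tpsb2, a tryptase gene (chr17:25503486-25505804, mm9, plus strand), was the lowest of the proteases in glands. Its level was 1.83, 6.61 and 4.38 CPM in the glands and 0.186, 0.262 and 0.749 CPM in the tumors, the latter from 1, 2 and 5 fragments. All tumors lay below all glands. The log2 fold change was -2.32 (SE 0.47, limma adjusted p = 0.00470), between means of 4.27 ± 2.39 CPM (SD, n = 3) and 0.399 ± 0.306 CPM. On this scale the pseudocount shrinks the change of such a low gene, and it was -3.35 with edgeR's quasi-likelihood test on the fragments. The longest match between the transcripts of Tpsb2 and Tpsab1 was 76.9% identical over 838 bp, and that between Mcpt4 and Mcpt1 was 85.3% identical over 873 bp. How fragments matching several genes were treated in the counting is not given in the sources used here.

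The 4 proteases ranked the libraries of a tissue alike. Among glands, M11035 was lowest and M11640 highest for each of the 4, and among tumors, T11035 was lowest and T9232 highest for each. Their summed level was 26.8, 113 and 63.1 CPM in M11035, M11640 and M9232 and 1.12, 3.80 and 12.6 CPM in the tumors, from 132, 686, 461, 6, 29 and 84 fragments. The sum leaves out the mucosal chymase gene Mcpt1, at 0 CPM in all 3 glands and 2.98, 27.0 and 7.34 CPM in T11035, T11640 and T9232. In T11035 and T11640, Mcpt1 alone exceeded the sum, so the fall is that of these 4 genes and not of all mast cell proteases. The mean of the sum was 67.7 ± 43.4 CPM (SD, n = 3) in glands and 5.83 ± 6.00 CPM in tumors, 11.6-fold lower. Since Ptprc, the pan leukocyte gene for CD45, also fell (log2 fold change -1.45, limma adjusted p = 6.86e-04), the sum was set against leukocyte genes. Per 1000 CPM of the 10 pan leukocyte genes it was 8.42, 64.9 and 24.8 in glands and 1.13, 3.10 and 8.95 in tumors, so T9232 passed M11035 and the tissues overlapped. The ratio of the means was then 7.45, and per 1000 CPM of Ptprc it was 5.15. Of all libraries, M11035 had the highest summed CPM of the pan leukocyte (3189), B cell (1046) and T cell (619) genes. Its low value on this scale thus depends on its leukocyte genes too. The part of leukocyte content in the fall of the proteases was not tested.

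**Figure D2:**
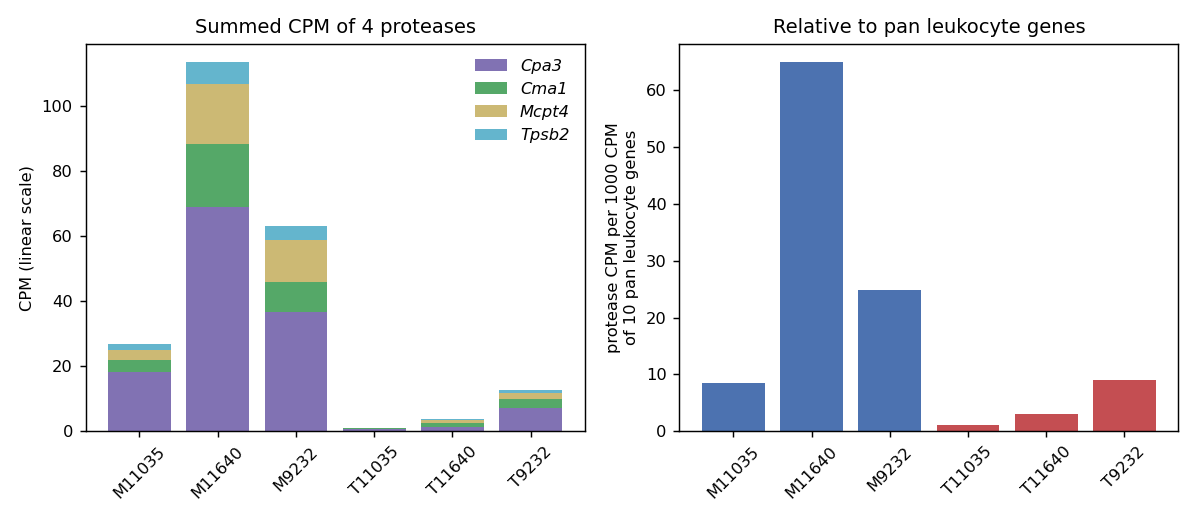
Left, summed CPM of the 4 proteases in each library on a linear scale, with each colour standing for 1 gene; right, the same sum per 1000 CPM of 10 pan leukocyte genes. The sum was 26.8 to 113 CPM in glands and 1.12 to 12.6 CPM in tumors, and on the right T9232 (8.95) stands above M11035 (8.42).

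The makeup of the mRNA of the 4 member proteases was compared through ratios to Cpa3. Fragments of Cma1 per fragment of Cpa3 numbered 0.202, 0.281 and 0.258 in glands and 0.667, 0.9 and 0.426 in tumors, so all tumors were above all glands. The log2 difference was 1.37 (two-sided exact permutation test, p = 0.1, the smallest that 3 against 3 libraries allow, and 0.3 after Benjamini-Hochberg adjustment over 3 ratios). Tumor T11035 had only 2 fragments of Cma1 and 3 of Cpa3. Summed over libraries, Cma1 had 26.4% as many fragments as Cpa3 in glands and 51.7% in tumors. The ratio of Tpsb2 to Cpa3 was 0.101, 0.0959 and 0.120 in glands and 0.333, 0.2 and 0.106 in tumors and overlapped between tissues (exact permutation p = 0.2). The ratio of Mcpt4 to Cpa3 was 0.180, 0.269 and 0.348 in glands and 0.8 and 0.255 in T11640 and T9232 (exact permutation p = 0.5, T11035 left out because it had no Mcpt4 fragment). The 3 tumors together held 60 fragments of Cpa3, and with 3 libraries per tissue none of the 3 ratios could pass a threshold of 0.05.

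Kit, the receptor for stem cell factor (chr5:75970941-76052747, mm9, plus strand), had a smaller fold change than the proteases, a difference that was not tested. It was measured at 55.7, 84.9 and 98.4 CPM in M11035, M11640 and M9232 and at 45.6, 24.0 and 28.9 CPM in the tumors. All tumors were below all glands, but T11035 and M11035, of the same mouse, were close together. The fall averaged 2.43-fold, with 79.7 ± 21.8 CPM (SD, n = 3) in glands and 32.8 ± 11.3 CPM in tumors (log2 fold change -1.28, SE 0.28, limma adjusted p = 0.00719). Per mouse, the log2 ratio of tumor to gland was -0.29 for T11035, -1.802 for T11640 and -1.75 for T9232. Less the change of Ptprc, the value of Kit was 0.17, which is smaller than the SE of its own fold change. No fall of Kit was thus seen on that scale, and the difference was not tested. Kit and the proteases also ordered the libraries differently: T11035, lowest of all for the proteases, had the highest Kit of the tumors.

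Markers of the other cells that make Kit were mostly lower for luminal progenitors and mostly not called for melanocytes. Of 10 luminal progenitor genes, 7 were called lower, against 13.7% of all genes, and 1 higher, against 14.5%. Their median log2 fold change was -2.36, and their summed level was 1086 to 7370 CPM in glands and 213 to 300 CPM in tumors. The list and its sum include milk protein genes. The lowest was the casein gene Csn3 (log2 fold change -4.91, limma adjusted p = 0.00102), and Elf5, a transcription factor of luminal progenitors, had a log2 fold change of -2.59 (adjusted p = 0.00154). Aldh1a3, an aldehyde dehydrogenase gene, was the 1 called higher (1.37, limma adjusted p = 0.00535), and Cd14 (0.82) was not called. Of 10 melanocyte genes 3 were analysed, with a sum of 9.91 to 12.4 CPM in glands and 4.72 to 6.51 CPM in tumors. Sox10 was called lower (-1.94, limma adjusted p = 0.0156), the pigment genes Tyr (0.15, adjusted p = 0.783) and Pmel (-0.49, adjusted p = 0.395) were not called, and the melanocyte genes Dct, Tyrp1 and Mlana were not analysed here. The part of these cells in the fall of Kit was not tested.

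The specific chains of the IgE receptor were near the limit of detection. Ms4a2, the β chain (chr19:11690013-11698209, mm9, minus strand), stood at 0.610, 1.32 and 1.78 CPM in glands and 0, 0.131 and 0.300 CPM in tumors, with 24 fragments in glands and 3 in tumors. Every tumor was below every gland. The ratio of tumor to gland fragments, scaled to depth, was 0.116 (95% exact interval 0.0224 to 0.382, for counting error only). Ms4a2 was called lower (log2 fold change -1.40, SE 0.43, limma adjusted p = 0.0296), but not with a pseudocount of 1 (-0.94) nor without any 1 of M11640, M9232, T11035 and T11640 (adjusted p = 0.0659 to 0.0924). Less the change of Ptprc, its value was 0.05.

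Fcer1a, the IgE-binding α chain (chr1:175151402-175157360, mm9, minus strand), was measured at 0.203, 1.16 and 2.33 CPM in glands and 0.186, 0 and 0.749 CPM in tumors. The tissues overlapped, since gland M11035 had a single fragment. The log2 fold change was -0.98 (SE 0.59) and did not pass the test (limma adjusted p = 0.217). Fcer1g, the γ chain that macrophages and other myeloid cells share, was called higher in contrast (log2 fold change 1.29, limma adjusted p = 0.0470), a call that held in 7 of 15 alternatives.

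Hdc, histidine decarboxylase (chr2:126419403-126445035, mm9, minus strand), ran against the other members. Its level was 2.85, 2.31 and 2.05 CPM in glands and 19.4, 11.1 and 28.3 CPM in tumors, from 14, 14, 15, 104, 85 and 189 fragments. The glands lay close together and every tumor was far above them. The mean rose 8.16-fold, with 2.40 ± 0.405 CPM (SD, n = 3) in glands and 19.6 ± 8.59 CPM in tumors (log2 fold change 2.71, SE 0.34, limma adjusted p = 3.59e-04). Less the change of Ptprc it was 4.15.

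Neutrophils also make Hdc, and their marker genes were mixed. Of the 10 listed, 8 were analysed, with a median log2 fold change of 0.45. Of these, 4 were called higher, against 14.5% of all genes, and 2 lower, against 13.7%. Their summed level was 222 to 614 CPM in glands and 864 to 1424 CPM in tumors. The rise covered the calgranulin genes S100a8 (log2 fold change 4.34) and S100a9 (4.26), which keratinocytes can also express, and the receptors Csf3r (2.38) and Cxcr2 (1.68), while the granule genes Ltf (-2.97) and Mpo (-1.96) were called lower. Ltf is also on the luminal progenitor list, so its call counts in both lists and is not particular to neutrophils. The call of Mpo held in 12 of 15 alternatives. Retnlg (-0.78) and Camp (-1.07) were not called. Mcpt8, a protease gene of basophils, was measured at 0.407, 0 and 0.274 CPM in glands and 0.186, 1.70 and 0.599 CPM in tumors and was not called (log2 fold change 0.75, limma adjusted p = 0.283). The part of these cells in the rise of Hdc was not tested.

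On a scale of CPM per kilobase of exon, the order of mean levels in glands was Cpa3 (28.4), Kit (13.7), Mcpt4 (11.6), Cma1 (10.1), Tpsb2 (3.82), Fcer1a (1.20), Ms4a2 (0.449) and Hdc (0.376). In tumors it was Kit (5.63), Hdc (3.07), Cpa3 (2.05), Cma1 (1.41), Mcpt4 (0.958), Tpsb2 (0.357), Fcer1a (0.304) and Ms4a2 (0.0521). Hdc moved from the last place to the place behind Kit. Neighbours such as Kit, Mcpt4 and Cma1 in glands were closer than their spread over mice.

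**Figure D3:**
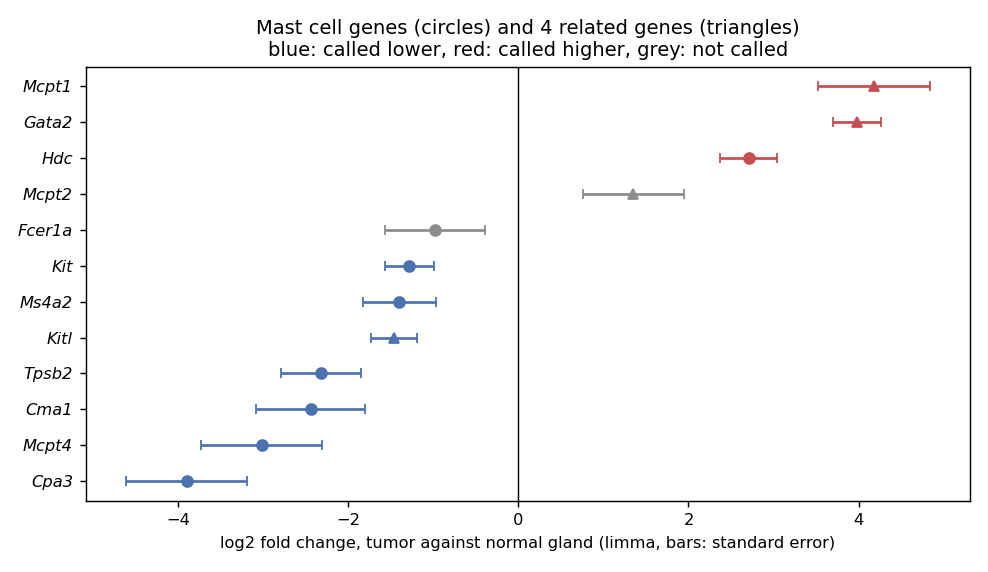
Log2 fold change of tumor against normal gland from limma, with standard errors, for the 8 mast cell genes (circles) and for Mcpt1, Mcpt2, Gata2 and Kitl (triangles). The members range from -3.90 (Cpa3) to 2.71 (Hdc), and the triangles of Mcpt1 (4.18) and Gata2 (3.98) lie furthest to the right. The value of Mcpt1 depends on the pseudocount, since all 3 glands are at 0.

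Other mast cell and basophil proteases, in a list that also holds granzyme genes, were called higher or not called. Of 11 listed, 5 were analysed and 2 were called higher, against 14.5% of all genes: the mast cell gene Mcpt1 and the granzyme gene Gzmc. None was called lower, against 13.7%. Mcpt1, a mucosal chymase gene (chr14:56636801-56639228, mm9), had 0 fragments in all 3 glands and 2.98, 27.0 and 7.34 CPM in T11035, T11640 and T9232. The tumor mean, 12.4 CPM, was at least 24.6-fold the mean level that 3 fragments per gland library allow. That mean rests largely on T11640, and the fold is smaller for T11035 and T9232. The gene was called higher by limma (adjusted p = 0.00125). Mcpt2, its neighbour, was measured at 0.203, 0 and 0.137 CPM in glands and 0.186, 1.048 and 3.00 CPM in tumors and was not called (log2 fold change 1.35, limma adjusted p = 0.1002), although edgeR, DESeq2 and limma without T11035 called it higher (3 of 14 alternatives). Gzmc, a granzyme gene of cytotoxic lymphocytes, had 1 fragment in glands and 173 in tumors and was called higher (log2 fold change 3.75, adjusted p = 3.93e-04). T11640 was the highest tumor for Mcpt1, while T9232 was the highest for Mcpt4 and the other members of the protease group.

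Genes of the granule matrix and of amine storage were mostly not called. Of 12, 3 were called higher, against 14.5% of all genes, and 0 lower, against 13.7%. None of the 3 is particular to mast cells: Ctsc (log2 fold change 1.33), the cathepsin C that activates granule proteases, Ext1 (1.09), a heparan sulfate polymerase, and Cd63 (1.04), a granule membrane protein. Ctsc was called in 15 of 15 alternatives, Ext1 in 14 and Cd63 in 12. Srgn, the serglycin core protein of many blood cells, had a log2 fold change of 0.27 (limma adjusted p = 0.461). Slc18a2, the vesicular transporter that loads histamine, was measured at 14.4, 19.0 and 18.6 CPM in glands and 15.1, 16.5 and 10.9 CPM in tumors (log2 fold change -0.29, limma adjusted p = 0.324).

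**Figure D4:**
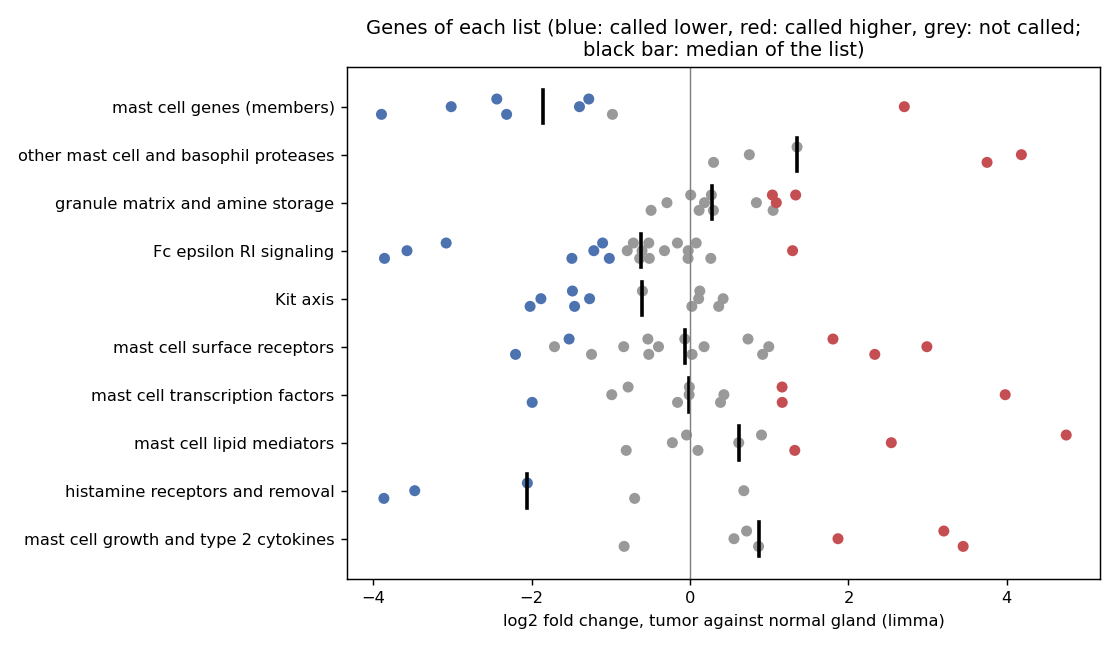
Log2 fold change of tumor against normal gland from limma for each analysed gene of the mast cell genes and of 9 related lists, coloured by call, with a black bar at the median of each list. The median was -1.86 for the mast cell genes, 1.35 for the 5 other proteases (the same with Mcpt1 at its bound) and -2.05 for the 5 genes of histamine receptors and removal.

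Genes around Kit were lower or not called. Of 11 analysed, 5 were called lower, against 13.7% of all genes, and 0 higher, against 14.5%. Kitl, the gene for stem cell factor, was at 131, 291 and 242 CPM in glands and 84.3, 70.6 and 73.6 CPM in tumors, with no overlap (log2 fold change -1.46, SE 0.27, limma adjusted p = 0.00316). The transducers Stat5a (-1.88), Stat5b (-1.27), Pik3cd (-1.49) and Pik3r1 (-2.02) also fell, and all 4 are made by many other cell types. The gene with the highest value was Adam17, with a log2 fold change of 0.42, which was under the fold of 2 and not called.

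Of 20 genes of FcεRI signaling, 7 were called lower, against 13.7% of all genes, and 1, Fcer1g, higher, against 14.5%. Those called lower included Rgs13 (log2 fold change -3.57), Lat (-3.08), Prkcb (-1.49), Btk (-1.22), Fyn (-1.10) and Lcp2 (-1.02). These 6 are also expressed by lymphocytes, whose marker genes were called lower in these tumors in 19 of 19 cases. The call of Lcp2 held in 11 of 15 alternatives. Syk, the central kinase of the pathway, had a log2 fold change of -0.51 (limma adjusted p = 0.195) and Lyn 0.26 (adjusted p = 0.325). The part of lymphocytes in these falls was not tested.

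Surface receptors of mast cells were called at rates near those of all genes. Of 17 analysed, 3 were called higher, against 14.5% of all genes, and 2 lower, against 13.7%. Mrgprb2, the receptor for basic secretagogues, was measured at 0.407, 4.29 and 3.15 CPM in glands and 1.49, 0.131 and 0.450 CPM in tumors, and the tissues overlapped (log2 fold change -1.24, limma adjusted p = 0.177). Mrgprb1, a related receptor gene, was similar, at 1.22, 10.9 and 7.52 CPM in glands and 1.30, 0.655 and 1.65 CPM in tumors (-1.71, adjusted p = 0.0655), although edgeR, DESeq2 and limma without M11035 called it lower. Of the 15 alternatives, Mrgprb2 was called lower in 1, without M11035. Both genes were lowest in M11035 and highest in M11640 among glands, the order of the 4 proteases. Among tumors the order differed, since both were lowest in T11640 and the proteases in T11035. Il1rl1, the IL-33 receptor, had a log2 fold change of -0.53 (adjusted p = 0.128). The called genes were Adora2b (2.99), Cd200r3 (2.33) and Cd9 (1.804), which were higher, and the integrins Itgb7 (-2.20) and Itgae (-1.53), which were lower.

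Among 11 transcription factors of mast cells, 3 were called higher, against 14.5% of all genes, and 1 lower, against 13.7%. Gata2, which is required for mast cell development and is also expressed by other cell types, was at 2.44, 4.46 and 3.01 CPM in glands and 46.7, 51.2 and 81.7 CPM in tumors. The tissues were far apart, with a log2 fold change of 3.98 (SE 0.28, limma adjusted p = 1.90e-05), and the call held in 15 of 15 alternatives. Runx1 (1.16) and Bhlhe40 (1.16) were called higher and Cebpa (-1.99), an adipocyte and myeloid factor, lower. Mitf, the mast cell and melanocyte factor, was not called (log2 fold change -0.16, limma adjusted p = 0.685).

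Genes that respond to histamine or remove it were called lower or not called. Of 9 listed, 5 were analysed and 3 were called lower, against 13.7% of all genes. These were Maob, a monoamine oxidase (log2 fold change -3.87), Slc22a3, an organic cation transporter (-3.48), and Hnmt, the histamine N-methyltransferase (-2.05, limma adjusted p = 0.00172). Hnmt was at 32.3, 67.1 and 33.4 CPM in glands and 6.33, 11.8 and 12.0 CPM in tumors, with no overlap. Hdc was thus higher in the same tumors in which Hnmt was lower, in 3 of 3 mice. The receptors Hrh1 (0.68) and Hrh2 (-0.70) were not called.

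Of 9 genes of lipid mediators analysed, 3 were called higher, against 14.5% of all genes, and 0 lower, against 13.7%. These were the cyclooxygenases Ptgs2 (log2 fold change 4.75) and Ptgs1 (2.54) and the leukotriene receptor Cysltr1 (1.32). Hpgds, the prostaglandin D synthase of mast cells, was at 22.4, 37.3 and 65.0 CPM in glands and 33.9, 34.7 and 42.1 CPM in tumors, and the tissues overlapped (log2 fold change -0.04, limma adjusted p = 0.930). Of 7 cytokine genes analysed, 3 were also called higher and 0 lower, against the same shares of all genes. The 3 were Il6 (3.45), Tslp (3.20) and Il33 (1.87), the last being the ligand of Il1rl1. Il33 was at 29.3, 51.9 and 33.4 CPM in glands and 77.2, 160 and 205 CPM in tumors, with every tumor above every gland.

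The genes whose pattern was most like that of the summed proteases were sought by Pearson's r of log2(CPM + 0.5) over the 6 libraries, among the 14708 genes, other than the 4 proteases themselves, that averaged 1 CPM or more. The 10 with the highest r were Entpd2 (0.999), She, Gsta3, Zfp667, Osbpl9, Cir1, Figf, Ccdc152, C1qtnf9 and Flad1 (0.985). With only 6 libraries in 2 tissues, 614 genes reached 0.9, so the values are a description. Entpd2, an ectonucleotidase, stood at 2.24, 4.62 and 3.42 CPM in glands and 0.186, 0.524 and 1.35 CPM in tumors, in the order of the proteases within each tissue. The r was 0.941 for Cd163 of macrophages, 0.822 for Adipoq of adipocytes, 0.777 for Ptprc, 0.73 for Kit and -0.80 for Hdc. For further genes listed for mast cells it was 0.819 (Mrgprb1), 0.726 (Il1rl1), 0.573 (Mrgprb2) and 0.406 (Slc18a2), each below that of Adipoq. Cd163 does not stand for its list: of 10 macrophage genes it was the only 1 called lower, against 13.7% of all genes. The other 9 were not called, and the call of Cd163 held in 10 of 15 alternatives. The median log2 fold change of the macrophage genes was 0.27.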

How the data were processed

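Total RNA of 3 tumors and 3 matched glands was sequenced in 1 lane (Ovation RNA-Seq System, paired ends). According to the methods, the authors mapped reads to mm9 with TopHat 2.0.3, counted fragments on RefSeq genes with htseq-count 0.5.3p9, removed genes under 10 fragments and used edgeR 3.6.1. The authors deposited a signal per gene, in CPM on edgeR's effective library size. In every library, all values were whole multiples of 1 step (within 0.01 fragments), so the fragments were recovered. The table was planned as CPM and recorded as a signal, since columns do not sum to 1000000, and takes the same test. 0 sample columns were left out.

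Genes were tested with limma 3.58.1 (R 4.3.3) on log2(CPM + 0.5), without a block and with the prior variance following the mean, and the script was tested on simulated data. Alternatives were pseudocounts of 0.1 and 1, a minimum mean of 1 CPM, no trend, plain totals, DESeq2 size factors, edgeR 4.0.16, DESeq2 1.42.0 (both on recovered fragments), a mouse block and leaving out each library. Tumor and gland of a mouse share an animal, so mouse numbers pair the libraries. Over 14712 genes, their deviations from the tissue means correlated with r = 0.107 (T11035), 0.151 (T11640) and 0.0168 (T9232). Whether the mouse was a model term is not given in the sources used here. Ratios to Cpa3 were compared by exact permutation over libraries, for 3 proteases instead of the 4 planned, because Tpsab1 was not analysed here. The sum holds 4 genes.

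The members and gene lists were chosen with earlier results of these data known. Named are all members, the highest and lowest gene of each list with a mean of at least 1 CPM, called genes where 5 or fewer, set defining genes and the 10 genes most like the protease sum, not all of which are used here, and 1 gene is not reported here. Genes outside this rule (Rgs13, Lat, Prkcb, Btk, Fyn, Lcp2, Syk, Lyn, Slc18a2, Mrgprb1, Mrgprb2, Hpgds, Hrh2, Elf5, Cd14, Pmel, S100a9, Csf3r, Cxcr2, Retnlg, Camp and Mpo) were picked with their values in view. Gene positions come from GENCODE vM1 (mm9), promoters from RefSeq (GRCm38.p6) and transcript identities from BLAST 2.17.0. Intervals cover counting error only.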

Additional observations from a re-analysis of the deposited data

How the results depend on the processing

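Across 15 alternatives (14 for Fcer1a and Ms4a2, which could not be fitted with a minimum mean of 1 CPM), the calls of Cpa3, Mcpt4, Tpsb2, Kit and Hdc held in each, Cma1 lost its call in 3 and Ms4a2 in 5, and Fcer1a was not called in any (adjusted p = 0.0586 to 0.531). Members called lower numbered 4 to 6 and higher 1. The replicate block (paired by mouse) left 6 lower and 1 higher and changed no member's call. Leaving out 1 library moved the log2 ratio of summed protease CPM from -3.54 to between -4.78 (without T9232) and -2.95 (without M11640). For the log2 ratio of Mcpt4 to Cpa3 (0.82), leaving out 1 library gave -0.0050 (without T11640) to 1.64 (without T9232). Less the change of Ptprc, a comparison chosen after seeing the data, Kit came to 0.17 and Ms4a2 to 0.052. Both values were smaller than the SE of the gene's own fold change (0.28 and 0.43), so they show no clear direction. Fcer1a, not called, came to 0.47, while Cma1 (-0.99), Cpa3 (-2.45), Mcpt4 (-1.57), Tpsb2 (-0.87) and Hdc (4.15) kept their direction. These differences and their cause were not tested. The low counts of Ms4a2, Fcer1a and Tpsb2 limit their fold changes, since with edgeR Ms4a2 came to -2.91.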
